A study of Mus musculus with 14 samples.

Results

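The AP-1 and EGR immediate early factors comprised 10 genes, Fos, Fosb, Fosl1, Fosl2, Jun, Junb, Jund, Egr1, Egr2 and Atf3, chosen by gene symbol among the 17656 genes measured in mouse liver. All 10 were listed in every one of the 14 liver RNA-seq libraries, each made from 1 mouse on the C57BL/6 background at 8 weeks of age. Wild-type (WT) mice and Ythdf1-/- mice (KO), in which the gene for an m6A-binding protein had been disrupted by CRISPR/Cas9 throughout the animal, received saline or concanavalin A (ConA), a plant lectin that activates T cells and causes acute hepatitis, and livers were taken at 8 h. The groups were WT saline (n = 3), KO saline (n = 3), WT ConA (n = 4) and KO ConA (n = 4), and ConA was injected into the vein at 8 mg/kg. Values are TPM, transcript abundances that are scaled for gene length and to a common total per library and keep no read depth. The comparisons ask what ConA did to these factors in each genotype and whether the loss of Ythdf1 altered their levels.

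Immediate early genes are transcribed within minutes of a stimulus, without new protein synthesis, and their mRNAs are short-lived. FOS and JUN proteins are basic leucine zipper factors that pair as AP-1 and bind DNA. FOS proteins need a JUN partner, whereas JUN proteins can also pair with each other. EGR1 and EGR2 are zinc finger factors induced by the same growth factor, stress and cytokine signals, largely through ERK, the serum response factor SRF and its ELK partners. ATF3 is a stress-induced basic leucine zipper factor that can pair with JUN proteins. In liver these genes are known for early induction in regeneration, injury and inflammation.

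Promoter stretches of 4 members are shown because they hold letters that match promoter elements classically linked to immediate early genes. They come from RefSeq windows on GRCm38.p6 that run from 250 bases before to 50 after a start site, of which 8 of the 10 members had at least 1. Egr1 and Fosl1 are named only. The Fos stretch is chr12:85473810-85473869 on the plus strand, the Jun stretch chr4:95052243-95052302 on the minus strand, the Atf3 stretch chr1:191183334-191183383 on the minus strand and the Egr2 stretch chr10:67537794-67537823 on the plus strand. All are written 5′ to 3′ along the gene. Capitals mark matches to TGACGT (or ACGTCA, the same letters on the other strand), to TGACATCA, to the CArG box or to TATAAA.
Fos: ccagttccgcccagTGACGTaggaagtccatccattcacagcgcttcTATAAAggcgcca
Jun: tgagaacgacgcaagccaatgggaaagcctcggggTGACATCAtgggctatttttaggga
Atf3: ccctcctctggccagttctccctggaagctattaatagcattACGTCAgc
Egr2: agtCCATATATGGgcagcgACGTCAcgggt

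The Fos and Jun stretches lie just before the annotated start of each gene and overlap no exon of the GENCODE vM21 annotation. The Atf3 and Egr2 start sites used here lie inside the full GENCODE gene intervals, and 7 of the 50 printed Atf3 bases are exonic there. Both strands were searched. TGACGT, the shared core of cAMP response elements, occurred in the Fos, Atf3 and Egr2 windows and in 7.51% of all 32851 promoter windows. TGACATCA, the variant AP-1 and ATF element, occurred in the Jun window alone among the members and in 3.62% of all windows. The CArG box, which SRF binds, occurred only in Egr2 windows among the members that had a window, and in 1.63% of all windows. The TATAAA letters were found in the Fos and Junb windows and in 13.6% of all windows. The EGR motif GCGNGGGCG was present in the Fosl2 and Fosb windows and in 5.55% of all windows. No member window held the canonical AP-1 element TGACTCA, found in 5.2% of all windows, or the STAT motif TTCNNNGAA, found in 8.3%. TGACGT is contained in the full cAMP response element TGACGTCA, which no member window held and which 1.79% of all windows did. Matches to the NF-kB motif, whose letters are searched by name only here, lay in Fos, Fosb, Fosl2 and Egr2 windows and in 6.93% of all windows. Egr1 and Fosl1 had no window and were not searched, and neither were bases outside the windows of the other members. The absence of a motif therefore holds for these windows alone and does not show that a gene lacks the element. A match describes letters and not binding.

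The livers carried hepatocyte markers at high levels, with summed TPM of 106700 to 133100 over 6 markers after saline and 53330 to 81180 after ConA. Whole-gene Ythdf1 was listed at 12.03 to 13.92 TPM in the saline-treated WT mice and at 18.4 to 20.8 in the saline-treated KO mice. With ConA it was 18.7 to 25.6 in WT and 15.5 to 26.2 in KO, and a whole-gene value does not check a deletion of part of the gene. WT saline replicates 2 and 3 were unusually alike. Their median absolute log2 ratio was 0.0926 over a set of genes picked as the most variable among the KO saline mice. Over the same genes it was 0.25 to 0.87 in the other pairs within WT saline, WT ConA or KO ConA. The KO saline pairs, at 1.11 to 1.41, are high through that choice of genes. Member results that change when they are averaged into 1 sample are therefore given both ways. Other named genes were not followed in this way. Averaging left far fewer genes called in KO saline against WT saline and for the interaction, so calls of other genes there may not hold. WT ConA replicate 3 and KO ConA replicate 3 each stood apart from their group on the second principal component, which held 7.77% of the variance. The labels call the samples of a group biological replicates.

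Fos (gene ID 14281, chr12:85473890-85477273), the founding AP-1 subunit, was low without ConA. It was 2.11, 1.36 and 1.13 TPM in the 3 WT saline mice and 0.39, 0.50 and 0.55 in the 3 KO saline mice. After ConA it was 2.70, 3.98, 1.87 and 4.14 TPM in WT mice and 8.06, 8.02, 33.04 and 31.14 in KO mice. Every KO saline mouse was below every WT saline mouse, and every KO ConA mouse was above every WT ConA mouse. The lowest WT ConA mouse overlapped the saline range of its genotype.

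Fosl2 (gene ID 14284), which encodes the FOS relative FRA-2, was 1.55, 1.31 and 1.42 TPM in WT saline and 1.44, 1.15 and 1.02 in KO saline. After ConA it was 9.05, 8.25, 6.42 and 8.18 TPM in WT mice and 10.46, 11.51, 13.67 and 12.08 in KO mice. The saline groups overlapped, and the ConA groups lay apart with KO above. Fosl1, which encodes FRA-1, was listed at 0 in all 6 saline libraries, at 0.84, 0.21, 0.16 and 0.24 TPM in WT ConA and at 1.83, 1.09, 2.69 and 0.42 in KO ConA, with overlap between the ConA groups. In GENCODE vM21, 57.2% of the Fosl1 exonic bases are shared with Ccdc85b on the other strand, and the sources used here do not say whether strand was used. Ccdc85b was at 2.76 to 6.87 TPM in all 14 libraries, the 6 in which Fosl1 was listed at 0 included. Fosb stayed at or below 0.54 TPM in all 14 libraries, did not reach the level at which genes were tested in any comparison, and gives no result.

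Among the JUN genes, Jun (gene ID 16476, chr4:95049034-95052222), the principal transactivating partner of FOS, was 9.53, 9.17 and 10.22 TPM in WT saline and 5.56, 6.77 and 6.08 in KO saline. After ConA it was 50.43, 56.90, 44.25 and 66.88 TPM in WT mice and 57.91, 65.18, 84.86 and 98.38 in KO mice. KO saline mice lay below WT saline mice without overlap, and the ConA groups overlapped. Junb (gene ID 16477, chr8:84974484-84978718), often a weaker activator that can oppose JUN, was 38.19, 26.86 and 28.90 TPM in WT saline and 17.54, 20.78 and 14.65 in KO saline. It was 262.98, 256.73, 259.04 and 266.90 TPM in WT ConA and 238.53, 293.94, 405.03 and 465.00 in KO ConA. The 4 WT ConA mice were nearly equal in unscaled TPM, and the KO ConA mice ran from below all of them to far above. Jund (gene ID 16478), the constitutively expressed JUN gene, was 43.40, 41.69 and 38.93 TPM in WT saline and 50.53, 52.42 and 46.49 in KO saline. After ConA it was 104.57, 109.07, 115.16 and 114.82 TPM in WT mice and 100.40, 112.52, 138.26 and 166.46 in KO mice. In saline Jund ran opposite to Jun and Junb, with every KO mouse above every WT mouse. Junb shares 7.52% of its exonic bases with Prdx2, and Jund and Jun share 52.6% and 7.28% of theirs with antisense genes, on the other strand, and without a stated use of strand these reads cannot be told apart.

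Egr1 (gene ID 13653), the best known early zinc finger factor, was 25.13, 16.55 and 18.19 TPM in WT saline and 2.89, 2.71 and 2.76 in KO saline. After ConA it was 19.85, 18.28, 11.54 and 20.36 TPM in WT mice and 34.32, 26.63, 116.92 and 174.92 in KO mice. WT mice had much the same Egr1 range with and without ConA, whereas the KO mice were the lowest of all 4 groups with saline and the highest with ConA. Egr2 (gene ID 13654), known for roles in myelination and in T cells, was at most 0.11 TPM in the 6 saline mice. It was 1.07, 1.5, 0.42 and 0.56 TPM in WT ConA and 2.25, 2.15, 3.86 and 3.36 in KO ConA, with no overlap between genotypes. Atf3 (gene ID 11910, chr1:191170296-191218039) was 1.13, 1.45 and 1.29 TPM in WT saline and 1.09, 0.73 and 1.17 in KO saline. After ConA it was 33.57, 45.70, 24.13 and 47.94 TPM in WT mice and 70.08, 81.47, 187.59 and 150.60 in KO mice, again with no overlap between genotypes.

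**Figure D1:**
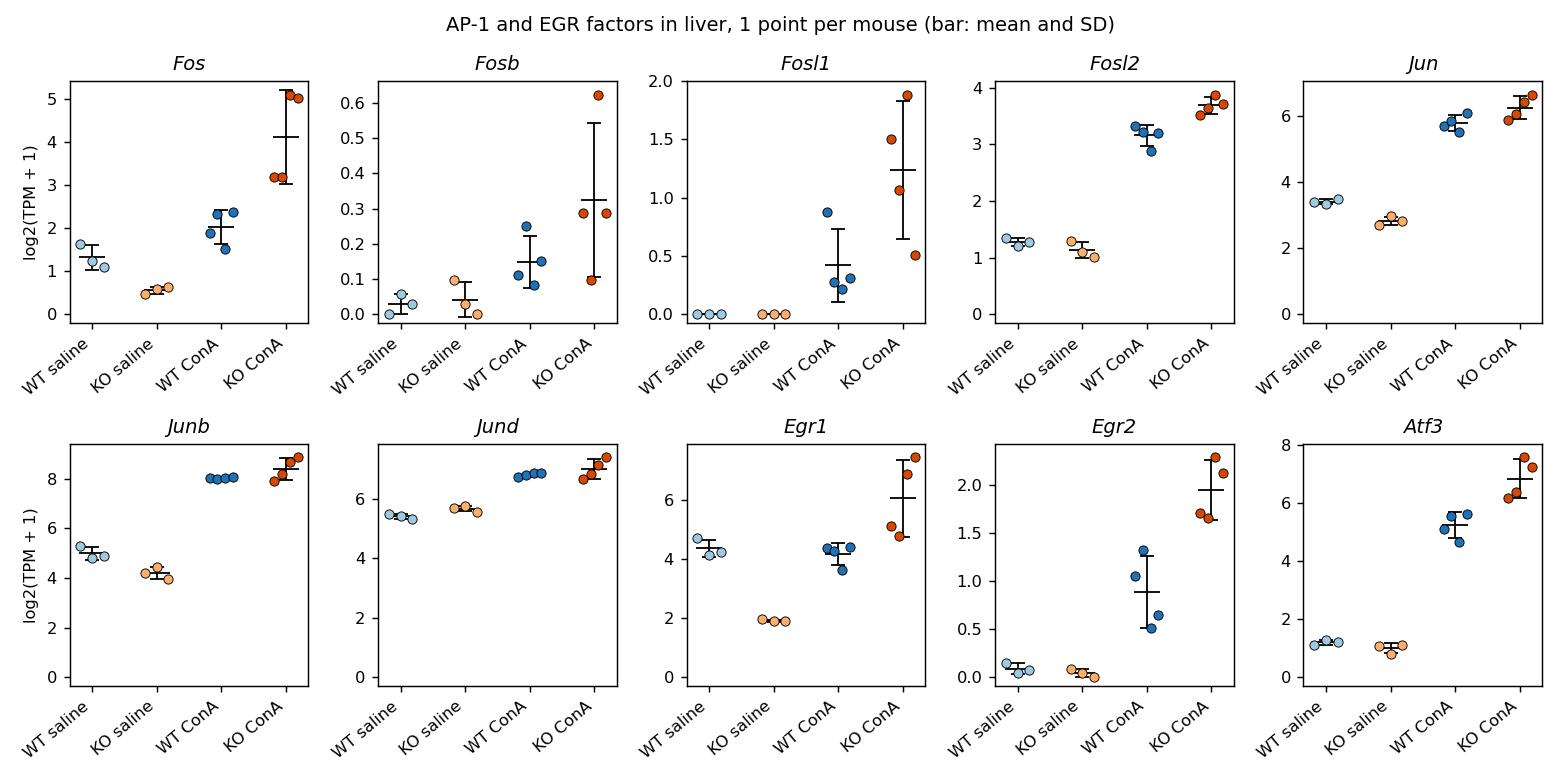
Level of each of the 10 genes as log2(TPM + 1) (vertical axis, scaled per gene) in the 4 groups (horizontal axis), with 1 point per mouse and the bar at the mean ± SD. Egr1 is lowest in the 3 KO saline mice (2.71 to 2.89 TPM) and highest in the 4 KO ConA mice (26.63 to 174.92 TPM), while WT mice are between 11.54 and 25.13 TPM in both treatments.

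On the TPM scale, which allows levels to be compared between genes, Jund was the most abundant member in saline livers (median 41.7 TPM in WT, 50.5 in KO) and Junb the next. After ConA the order changed, with Junb first (median 261 TPM in WT ConA, 349.5 in KO ConA) and Jund second, and these neighbours did not overlap in any group. Egr1 was the third in WT saline, above Jun, but the fourth in KO saline, below Jun, each without overlap between the neighbours. In WT ConA, Atf3 followed Jun with overlapping ranges and Egr1 came next, clear of both. In KO ConA the ranges of Jund, Atf3, Egr1 and Jun overlapped between successive neighbours. Fos was among the low members everywhere, at a median of 1.36 TPM in WT and 0.5 in KO with saline, and of 3.34 in WT and 19.6 in KO with ConA.

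ConA raised most of these factors in WT liver. Of the 10 members, 7 passed the filter on low TPM in the comparison of WT ConA with WT saline, and 6 of them rose. Of all 10768 genes tested, 53% were called, 22% higher and 31% lower. Differences are given on the log2(TPM + 1) scale, with SE, from limma, and p-values were adjusted over all genes tested. The JUN genes rose by 2.37 ± 0.16 (Jun, adjusted p = 4.08e-06), 3.04 ± 0.14 (Junb, adjusted p = 5.85e-07) and 1.40 ± 0.11 (Jund, adjusted p = 1.13e-05). Atf3 showed the largest difference of the members, 4.04 ± 0.23 (adjusted p = 1.80e-06), and Fosl2 rose by 1.88 ± 0.15 (adjusted p = 1.10e-05). Fos rose by a modest 0.70 ± 0.23 (adjusted p = 0.0300). Egr1 differed by -0.19 ± 0.22, with a 95% confidence interval of -0.69 to 0.31, and was not called (adjusted p = 0.503). In bulk liver, more cells of a type and more RNA per cell cannot be told apart, and 7 neutrophil markers summed to 318 to 560 TPM in WT ConA against 9.54 to 11.1 in WT saline, whose part in these differences was not tested.

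The Fos call in WT liver was not stable. Its adjusted p was 0.170 with all 14 libraries in the fit, 0.0607 with no filter on TPM, 0.0965 without WT saline replicate 2, 0.121 without WT saline replicate 3, 0.0758 without WT ConA replicate 2, 0.0713 without WT ConA replicate 4 and 0.107 with WT saline replicates 2 and 3 averaged. The calls of Fosl2, Jun, Junb, Jund and Atf3 were kept under all 15 alternatives in which each could be tested.

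In KO liver ConA raised 9 of the 10 members, every one that passed the filter. Of 10988 genes tested, 64.6% were called, 33.9% higher and 30.7% lower. Fos, Fosl1 and Egr2 passed that filter through the KO ConA libraries alone and so had to differ. Atf3 rose by 5.84 ± 0.30 (adjusted p = 8.03e-08), Junb by 4.20 ± 0.22 (adjusted p = 7.56e-08) and Jun by 3.42 ± 0.18 (adjusted p = 9.47e-08). Egr1, which had not changed detectably in WT liver, rose by 4.15 ± 0.54 (adjusted p = 5.74e-05). Fos rose by 3.55 ± 0.46, Fosl2 by 2.55 ± 0.16, Egr2 by 1.90 ± 0.18 and Jund by 1.33 ± 0.17, all called. No fold is given for Fosl1, which was listed at 0 in KO saline. Neutrophil markers summed to 413 to 953 TPM in KO ConA and 5.3 to 10.8 in KO saline, and their part was not tested.

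Without ConA, KO livers had less Egr1, Jun, Junb and Fos mRNA than WT livers. Of the 7 members that passed the filter, these 4 fell and none rose, where 19.2% of 10459 genes were called, 12.9% lower and 6.3% higher. Egr1 fell by 2.45 ± 0.15 on the log2 scale (95% confidence interval -2.79 to -2.10, adjusted p = 3.44e-04), the 34th largest absolute difference of all genes tested. Junb fell by 0.79 ± 0.17 (adjusted p = 0.0246) and Jun by 0.58 ± 0.09 (adjusted p = 0.0162). Fos fell by 0.76 ± 0.16 (adjusted p = 0.0236) and passed the filter through the WT saline libraries alone. Jund differed by 0.26 ± 0.09 (adjusted p = 0.0704), Fosl2 by -0.14 ± 0.11 (adjusted p = 0.373) and Atf3 by -0.20 ± 0.13 (adjusted p = 0.267). The 4 genes that fell were also the 4 whose KO saline mice all lay below the WT saline mice, an arrangement found for 29.2% of the genes tested.

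The Egr1 difference in saline was called under all 14 alternatives, at -2.77 to -2.28, with adjusted p of 1.89e-04 to 0.0228. The calls of Fos, Jun and Junb were lost, leaving 1 called member, without WT saline replicate 2, without WT saline replicate 3, without KO saline replicate 1 and when WT saline replicates 2 and 3 were averaged. Markers of Kupffer cells, the resident liver macrophages, summed to 59.8 to 105 TPM over 6 genes in WT saline and 25.3 to 56.1 in KO saline, with none of the 6 called and none at 0 in a group. Markers of stellate cells summed to 15.1 to 59.9 TPM over 5 genes in WT saline and 55.7 to 95.4 in KO saline, with 2 of the 5 called higher in KO. Those of sinusoidal endothelial cells summed to 12.8 to 21.0 and 21.4 to 36.9 over 5 genes, with 2 called higher, Pecam1 (0.57, adjusted p = 0.0318) among them. Of 6 hepatocyte markers 1 was called higher and 1, Cyp2e1, lower (-0.82, adjusted p = 0.0268). The part of any of these in the differences was not tested.

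After ConA, all 8 members that passed the filter had a higher mean in KO ConA than in WT ConA, and none was called in either direction, against 0.428% of 10519 genes called. At an unadjusted p under 0.05 the limma count was 6 of these 8 members and 1753 of all genes. The differences were 2.09 ± 0.45 for Fos (95% confidence interval 1.11 to 3.08, adjusted p = 0.0667), 1.89 ± 0.51 for Egr1 (0.76 to 3.02, adjusted p = 0.110), 1.60 ± 0.32 for Atf3 (0.90 to 2.30, adjusted p = 0.0617) and 1.06 ± 0.22 for Egr2 (0.57 to 1.55, adjusted p = 0.0664). These 4 intervals lay above 0, as did those of Fosl2 (0.18 to 0.88) and Jun (0.05 to 0.88), while those of Junb and Jund included 0. Fos, Egr1 and Atf3 were the 27th, 34th and 48th of all genes by absolute difference. The remaining differences were 0.53 ± 0.16 for Fosl2 (adjusted p = 0.134), 0.47 ± 0.19 for Jun (adjusted p = 0.249), 0.37 ± 0.19 for Junb (adjusted p = 0.354) and 0.20 ± 0.16 for Jund (adjusted p = 0.589). The median over the 8 was 0.80, beside 0.05 over all genes tested, of which 57.5% were above 0. Egr2 passed the filter through the KO ConA libraries, as it reached 1 TPM in 2 of the 4 WT ConA libraries, and stands in each of these counts. Jund had the higher mean in KO with saline too.

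The ranges of the ConA-treated genotypes did not overlap for 5 members, Fos, Fosl2, Egr1, Egr2 and Atf3, with KO above WT in each, an arrangement found for 6.37% of all genes tested. A fit that drew the spread from all 14 libraries called the same 5 members and 6.08% of all genes tested, with adjusted p of 0.00920 for Fos, 0.0275 for Fosl2, 0.0232 for Egr1, 0.00734 for Egr2 and 0.00785 for Atf3. It takes 1 spread per gene from all groups, and the saline groups varied less. The median SD of log2(TPM + 1) over genes was 0.10 in WT saline, 0.14 in KO saline, 0.28 in WT ConA and 0.24 in KO ConA. For Egr1 the SD was 0.035 in KO saline and 1.303 in KO ConA. The SE was smaller than in the fit on the ConA mice alone for all 5 members. It was 0.39 for Fos, 0.45 for Egr1, 0.28 for Atf3, 0.18 for Egr2 and 0.13 for Fosl2. For all 5 these adjusted p therefore rest on less spread than the ConA mice had. Neutrophil markers summed to 318, 360, 478 and 560 TPM in the WT ConA mice in ascending order and to 413, 747, 905 and 953 in the KO ConA mice, so these groups overlapped. None of the 7 was called or at 0 in a group. Markers of T cells, the cells that ConA activates, summed over 6 genes to 1.34 to 3.29 TPM in WT mice and 2.79 to 5.4 in KO mice with ConA. Stellate cell markers summed to 20.7 to 60.0 TPM in the former and 49.5 to 97.3 in the latter, and hepatocyte markers to 58650 to 81180 and 53330 to 65400. No tested marker of these lists was called between the ConA groups. Only 1 of the 6 T cell markers and 2 of the 5 stellate cell markers passed the filter there. The part of these cells in the differences was not tested.

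**Figure D2:**
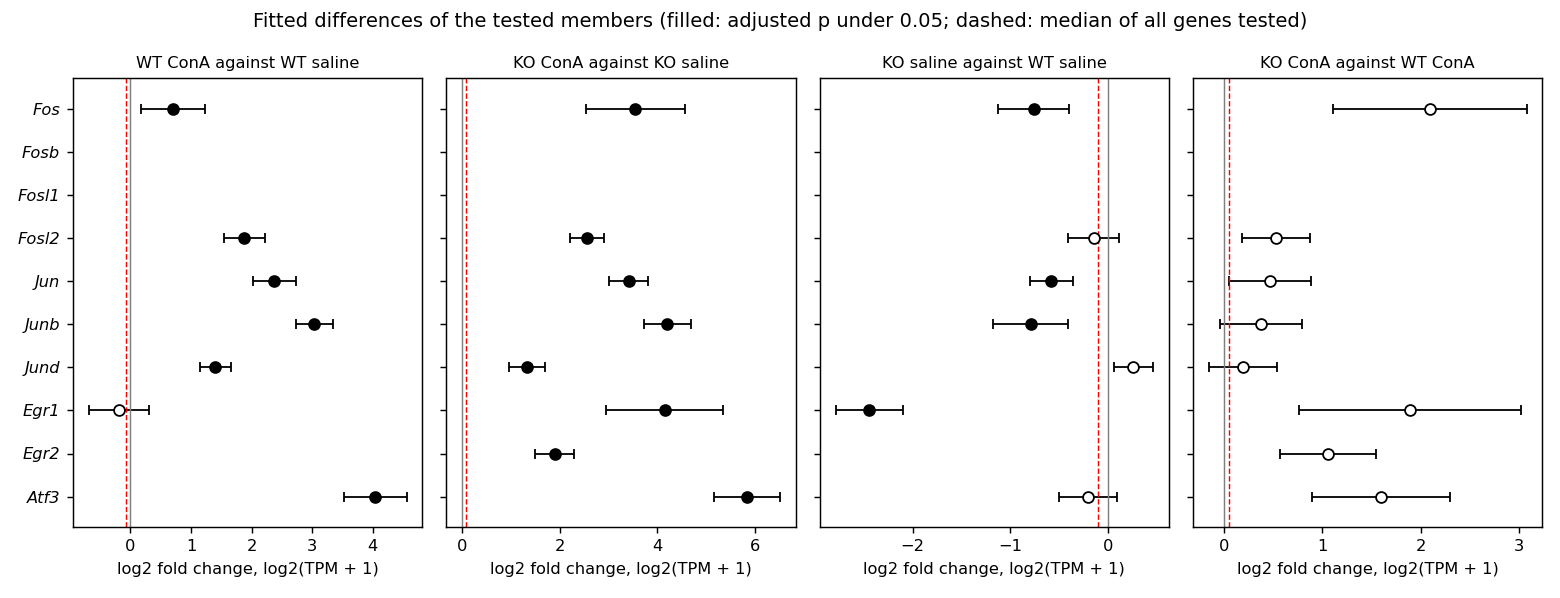
Fitted differences (points, horizontal axis, log2(TPM + 1) scale) with 95% confidence intervals for the tested members in 4 comparisons, filled where the adjusted p was under 0.05, with the median of all genes tested as a dashed line. Egr1 is near 0 in WT ConA against WT saline (-0.19), positive in KO ConA against KO saline (4.15) and negative in KO saline against WT saline (-2.45), and Fosl1 is left out because it was listed at 0 in saline.

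The KO ConA mice varied among themselves more than the WT ConA mice in Egr1, Fos, Atf3 and the JUN genes. Egr1 ran from 26.63 to 174.92 TPM in KO ConA, a ratio of 6.57, and from 11.54 to 20.36 in WT ConA, a ratio of 1.76. The SD of log2(TPM + 1) for Egr1 was 1.303 among the KO ConA mice, larger than in 99.9% of the 10502 genes with a mean of at least 1 TPM there, whose median SD was 0.24. For Fos the SD was 1.08, larger than in 99.8% of these genes, and for Atf3 it was 0.68, larger than in 98.3%. In WT ConA the SDs of the same genes were 0.36, 0.40 and 0.45. Junb gave the sharpest contrast in coefficient of variation, 1.71% in WT ConA against 29.4% in KO ConA, and only 0.126% of genes had a smaller log2 SD in WT ConA. All these spreads are of TPM without rescaling. The median-ratio size factor was 0.79 in WT ConA replicate 3 and 1.02 to 1.08 in the other WT ConA mice. The near-equality of Junb in WT ConA thus holds for unscaled TPM alone. Fosl2 and Egr2 had the smaller SD in KO ConA, 0.15 against 0.19 in WT ConA for Fosl2 and 0.31 against 0.37 for Egr2. These spreads are descriptions of 4 mice a group, and no test compared them.

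The high KO ConA values came from the same mice. Replicate 3 or replicate 4 was the highest KO ConA mouse for all 10 members, replicate 3 for 6 and replicate 4 for 4. For Fos and Egr1 these 2 mice stood well above replicates 1 and 2, which themselves were above every WT ConA mouse. Neutrophil markers summed to 905, 953, 747 and 413 TPM in KO ConA replicates 1 to 4 and Kupffer cell markers to 13.6, 13.4, 20.2 and 5.07, and the part of either was not tested. Among WT ConA mice, replicate 3 was the lowest for 8 of the 10 members, Junb and Jund being the exceptions. Replicates have no order in time or dose, and nothing in the labels sets these mice apart. Over all genes KO ConA replicate 3 did stand apart, at 22.61 on the second principal component against -17.3 to -4.94 in the other KO ConA mice. Its size factor was 0.85, against 0.98 to 1.19 in those mice. The part of this in its high member values was not tested.

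**Figure D3:**
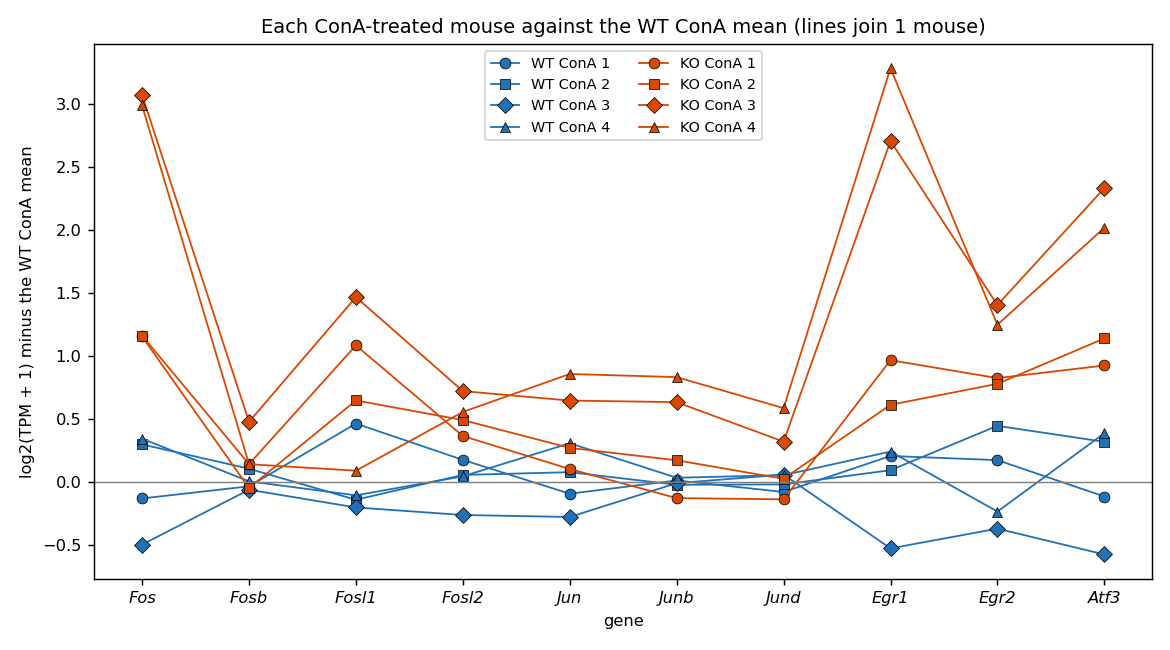
Log2(TPM + 1) of each of the 8 ConA-treated mice minus the WT ConA mean (vertical axis) for the 10 genes (horizontal axis), with a line joining the values of 1 mouse. KO ConA replicates 3 and 4 rise far above the other mice at Fos, Egr1 and Atf3 (116.92 and 174.92 TPM for Egr1), and WT ConA replicate 3 is the lowest mouse for most genes.

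For 6 of the 9 members that could be tested in a model with both factors, the response to ConA was not the same in KO and WT mice. All 6 changed more in KO than in WT, and 4.78% of 11327 genes were called, 2.64% higher. This model also takes 1 spread per gene from all 14 libraries, so the smaller spread with saline enters these adjusted p. The difference between the ConA responses was 4.34 ± 0.68 for Egr1 (95% confidence interval 2.88 to 5.79, adjusted p = 0.0103), the third largest of all genes by absolute size. It was 2.85 ± 0.59 for Fos (adjusted p = 0.0279), 1.80 ± 0.42 for Atf3 (adjusted p = 0.0343), 1.16 ± 0.28 for Junb (adjusted p = 0.0355), 1.11 ± 0.27 for Egr2 (adjusted p = 0.0382) and 1.04 ± 0.25 for Jun (adjusted p = 0.0349). For Fosl2 it was 0.67 ± 0.20 (adjusted p = 0.0619) and for Jund -0.07 ± 0.20 (adjusted p = 0.854, interval -0.50 to 0.37). Fosl1 was not called (adjusted p = 0.162). Of these 6, Egr1, Fos, Jun and Junb were called lower in KO with saline, Atf3 was not called there and Egr2 was too low to be tested there, and none of the 6 was called between the ConA groups. Fosl1 and Egr2 passed the filter through ConA libraries alone.

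The Egr1 interaction was called under all 21 alternatives, at 3.87 to 4.76 with adjusted p of 0.00388 to 0.0359. It was the 1 member still called without WT saline replicate 2, WT saline replicate 3, KO saline replicate 1, KO saline replicate 2 or KO ConA replicate 4, and with WT saline replicates 2 and 3 averaged, where the adjusted p of the other 5 ran from 0.0507 to 0.109. The median interaction over all genes was 0.14, and 0.03 after the libraries were rescaled to a common median ratio, under which 2 members, Egr1 and Fos, were called.

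Summed over families, JUN mRNA exceeded FOS mRNA in every library. The 4 FOS genes together were 2.57 to 3.66 TPM in WT and 1.57 to 1.90 in KO livers with saline, and 8.51 to 12.7 in WT and 20.6 to 49.9 in KO livers with ConA. The 3 JUN genes were 77.7 to 91.1 TPM in WT and 67.2 to 80.0 in KO livers with saline, and 418 to 449 in WT and 397 to 730 in KO livers with ConA. The ratio of JUN to FOS family TPM with saline was 24.9 to 30.4 in WT and 38.8 to 47.9 in KO mice. With ConA it was 33.0 to 49.2 in WT and 12.6 to 22.8 in KO mice. The ratio was thus higher in every KO saline mouse than in any WT saline mouse, and lower in every KO ConA mouse than in any other mouse. Fos itself made up 44.0% to 57.6% of the FOS family TPM in WT mice with saline and 21.3% to 32.7% with ConA. In KO mice its share was 20.5% to 35.0% with saline and 38.8% to 71.0% with ConA, so the share was lower after ConA in WT and higher in KO, with no overlap in either. Within the JUN family the largest share passed from Jund, 47.6% to 69.2% with saline, to Junb, 59.5% to 64.5% with ConA.

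**Figure D4:**
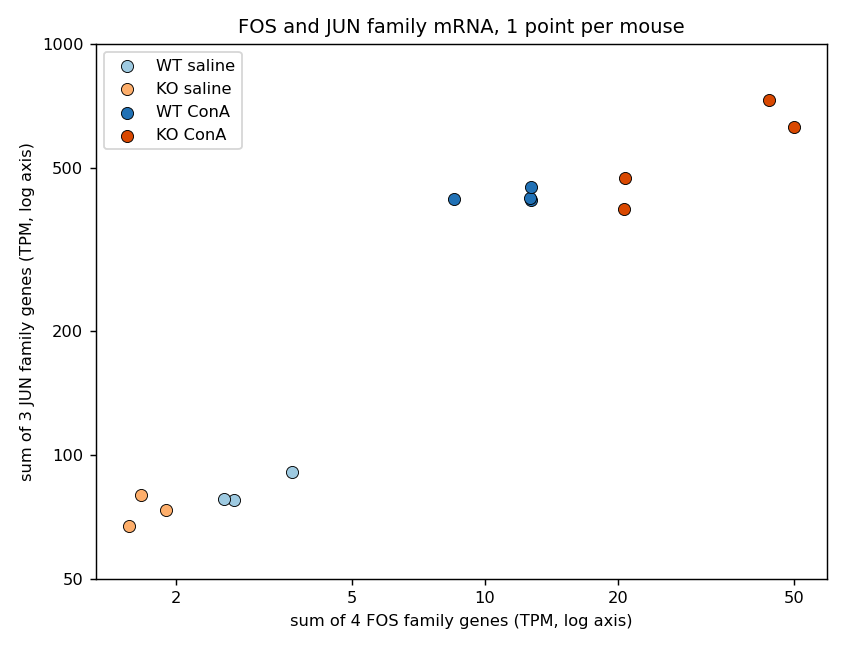
Summed TPM of the 4 FOS genes (horizontal log axis) and the 3 JUN genes (vertical log axis), 1 point per mouse. KO ConA mice lie to the right of WT ConA mice (20.6 to 49.9 against 8.51 to 12.7 TPM of FOS mRNA) with overlapping JUN sums, and KO saline mice lie to the left of WT saline mice.

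Other genes of the same response were read from lists. Of 35 further immediate early genes that could be tested, 33 had a higher mean in KO ConA than in WT ConA, beside 57.5% of all genes. Their median difference was 0.63, beside 0.05 over all genes, and 1 was called, beside 0.428% of all genes. That gene was Id1, an inhibitor of basic helix-loop-helix factors, at 2.62 to 5.30 TPM in WT mice and 16.4 to 43.4 in KO mice with ConA, a difference of 2.49 ± 0.30 (adjusted p = 0.0126). Ccn1, a secreted matrix protein, was 4.04 to 5.93 TPM in the former and 9.89 to 47.7 in the latter (2.10 ± 0.40, adjusted p = 0.0534). The nuclear factor Csrnp1 was 20.2 to 28.4 and 38.5 to 70.9 TPM (1.01 ± 0.20, adjusted p = 0.0607). Against saline, 19 of 34 tested rose and 4 fell in WT liver, where 22% of all genes tested rose and 31% fell. In KO liver 31 of 35 rose and 1 fell, where 33.9% of all genes rose and 30.7% fell. In saline, 3 of 33 were higher and 5 lower in KO, beside 6.3% and 12.9% of all genes, and the interaction called 10 higher and 1 lower of 35, beside 2.64% and 2.14%.

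Among 19 other basic leucine zipper factors tested, Maff was the 1 called in KO ConA against WT ConA (1.10 ± 0.18, adjusted p = 0.0369), beside 0.428% of all genes. This small MAF factor, which lacks an activation domain, was 7.02 to 9.41 TPM in WT and 3.33 to 6.62 in KO livers with saline, and 26.4 to 35.1 in WT and 51.0 to 86.2 in KO livers with ConA. Maff resembled Fos, Jun and Junb in being lower in KO saline (-0.79 ± 0.22, adjusted p = 0.0474) and in its interaction (1.89 ± 0.31, adjusted p = 0.0114). In saline Maff was the 1 called of 15 tested, beside 19.2% of all genes. For the interaction it was the 1 called of 19, beside 4.78% of all genes. Both counts of the list are near or below those shares. ConA changed 12 of 19 in WT liver, 9 of them upward, where 53% of all genes were called, and 16 of 19 in KO liver, 13 upward, where 64.6% were. Crem, an inducible cAMP-responsive factor, differed by 0.97 ± 0.25 between the ConA groups (adjusted p = 0.0965) and Mafk by 0.66 ± 0.17 (adjusted p = 0.102).

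Of 24 kinases and SRF, ELK and MRTF factors upstream of these genes, none was called between the ConA groups, beside 0.428% of all genes. A higher mean in KO was found for 20, beside 57.5% of all genes. The 3 with the smallest p were Mapkapk2, the p38 effector kinase (0.63 ± 0.14, adjusted p = 0.0675), Srf (0.83 ± 0.21, adjusted p = 0.0887) and the ribosomal S6 kinase Rps6ka3 (0.75 ± 0.20, adjusted p = 0.108). ConA raised 9 and lowered 7 of 25 in WT liver and raised 12 and lowered 7 of 26 in KO liver, near the 53% and 64.6% of all genes called in these comparisons. In saline 1 of 24 was higher and 3 were lower in KO, beside 6.3% and 12.9% of all genes. The interaction called 2 of 26, both higher, beside 2.64% of all genes. Nab1 and Nab2, co-repressors that bind EGR proteins, differed by 0.33 ± 0.32 and 0.28 ± 0.17 between the ConA groups, neither called. In saline Nab1 fell in KO by 0.59 ± 0.13 (adjusted p = 0.0252).

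Of 19 tested genes that textbooks list as AP-1 targets, 17 had a higher mean in KO ConA than in WT ConA, beside 57.5% of all genes. Their median was 0.60, beside 0.05 over all genes, and none was called, beside 0.428% of all genes. Hbegf, an EGF receptor ligand, was 0.84 to 1.69 TPM in WT mice and 3.0 to 7.51 in KO mice with ConA (1.24 ± 0.24, adjusted p = 0.0607). It was the 1 target with a called interaction (1.55 ± 0.31, adjusted p = 0.0253). Plaur, the urokinase receptor, was 6.16 to 12.6 TPM in WT mice and 15.3 to 31.5 in KO mice with ConA, and Timp1, a metalloproteinase inhibitor, 12.1 to 18.9 and 22.2 to 60.6, neither called. ConA raised 14 and lowered 1 of 16 in WT liver and raised 17 and lowered 1 of 19 in KO liver, beside 22% and 33.9% of all genes raised. Some of these targets passed the filter through the ConA libraries alone and so had to differ. Hbegf, Plaur and Timp1, at most 0.83, 0.57 and 0.87 TPM with saline, were among them. These counts are therefore partly set by the filter. In KO saline 2 of 9 were higher, beside 6.3% of all genes. Of 12 textbook EGR1 targets, none was called between the ConA groups, beside 0.428% of all genes. A higher mean in KO was found for 9, beside 57.5% of all genes, with a median of 0.53. Their interaction gave 0 of 12 called, beside 4.78% of all genes. In saline 1 of 7, Vegfa, was lower in KO, beside 12.9% of all genes. Both counts are near those shares. ConA raised 8 and lowered 1 of 11 in WT liver and raised 11 and lowered 1 of 12 in KO liver, where 22% and 33.9% of all genes rose. The filter enters these counts too, as Thbs1, at 0.22 to 0.33 TPM in WT saline, passed it there through WT ConA libraries alone. Cdkn1a, the cell cycle inhibitor p21, was 142.9 to 211.8 TPM in WT mice and 226.9 to 345.3 in KO mice with ConA.

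The genes most like Fos, Jun, Egr1 and Atf3 over the 14 libraries were found by the root mean square difference of log2(TPM + 1) after each of 11125 genes was centred on its mean. Closest to Egr1 was Fos, at 0.60 log2 units, where the median over all genes was 1.61. Closest to Fos were Csf3, the neutrophil growth factor G-CSF, at 0.43, the DNA damage gene Gadd45a at 0.50 and the transporter Slc16a6 at 0.55, and Egr1 was the 11th at 0.60. Jun was nearest to Litaf, Fgg and Slc37a1, at 0.21, 0.21 and 0.22. Atf3 was nearest to Btg2, an anti-proliferative early gene, at 0.34, the chemokine Ccl7 at 0.36 and Syt12 at 0.40. The difference between saline and ConA libraries, shared by many genes, enters these distances, which are given as descriptions.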

How the data were processed

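Liver RNA from 14 mice was sequenced as single-end 50-base reads on a BGISEQ-500. The deposited values are TPM per gene, made by the authors before deposit. The submitters' processing notes name Bowtie2, RSEM 1.3.1 and GRCm38.p6, whereas the published methods name STAR and HTSeq, so the counting route is not settled. TPM keeps no depth, so counting error is unknown and no count test was run. Groups came from the sample labels. Each comparison was fitted with limma 3.58.1 (R 4.3.3; eBayes with trend) on log2(TPM + 1) over its own libraries, and the interaction over all 14. Testing needed a TPM of at least 1 in as many libraries as the smaller group held. Tests were two-sided, p-values were Benjamini-Hochberg adjusted over the genes tested in that comparison, and a call needed an adjusted p under 0.05. The pseudocount understates changes of low genes. The scripts were tested on simulated data. Summaries and figures used Python 3.11.15, pandas 2.3.3 and matplotlib 3.10.9. Gene positions are from GENCODE vM21 and promoter windows from RefSeq.

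All members are named. From each list the 3 genes with the lowest p between the ConA-treated genotypes could be named, with any gene called there, and the 3 nearest genes of Fos, Jun, Egr1 and Atf3, although Egr1 beyond the 3 nearest to Fos, and Vegfa, were named after their values were seen. The members and lists were chosen with earlier results of these data known. Of the lists, 2 genes, Ccl2 and Tgfb1, were both AP-1 and EGR1 targets. Alternatives were another pseudocount, other filters, median-ratio rescaling, all libraries in the fit, robust eBayes, a replicate block, leaving out each mouse and averaging WT saline replicates 2 and 3. Same-numbered mice deviated together in some pairs and not in others (correlations of -0.002 to 0.342 between the saline genotypes, -0.007 to 0.405 between the ConA genotypes), and in no pair of groups did every correlation exceed 0.1, so the numbers were not taken as pairs.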

Additional observations from a re-analysis of the deposited data

Results flagged for a closer look

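Fosl1 in WT ConA replicate 1, at 0.84 TPM, stood apart from the other 3 mice of its group, with a gap of 0.882 of the group's whole range. Of 20 such groups checked 1 was picked out, and chance gives about 1 in 20. By the interaction term in limma, the ConA response of KO and WT mice differed for 6 members, each with the larger change in KO. The log2 difference between the responses was 4.34 for Egr1, 2.85 for Fos, 1.80 for Atf3, 1.16 for Junb, 1.11 for Egr2 and 1.04 for Jun.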

How the results depend on the processing

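The number of members called in KO ConA against WT ConA was 0 under every alternative except the fit on all 14 libraries, which called 5. In KO saline against WT saline it was 4, and 1 with all 14 libraries, 1 once WT saline replicates 2 and 3 were averaged, and 1 to 5 when a mouse was left out. For the interaction it was 6, and 2 with no filter, 2 after rescaling, 1 with those replicates averaged and 1 to 6 when a mouse was left out. With a replicate block, which treats mice of the same number as a set, 1 member (Egr1) was called for the interaction. The labels share numbers between groups but give them no meaning, and the block ended the Fos call in WT ConA against WT saline (adjusted p = 0.0501) and changed no other member call outside the interaction. The direction of one fitted difference turned, Jund in the interaction, at 0.0442 without KO ConA replicate 1 (-0.20 to 0.0442 when a mouse was left out). Of the refitted member differences, 540 kept direction and side of the threshold, 74 lost the call and 6 gained it.

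Genes called over the whole table were fewer or more in KO ConA against WT ConA (45, and 3 with no filter, 25 after rescaling, 640 with all 14 libraries, 140 with the replicate block, 5 to 52 when a mouse was left out), in KO saline against WT saline (2009, and 958 with no filter, 332 with all 14 libraries, 49 with those replicates averaged, 45 to 2739 when a mouse was left out) and for the interaction (541, and 345 with no filter, 133 with the replicate block, 28 with those replicates averaged, 22 to 769 when a mouse was left out). Rescaling changed the split of higher against lower calls from 36 and 9 to 12 and 13 in KO ConA against WT ConA, from 2368 and 3336 to 2955 and 3097 in WT ConA against WT saline, and from 659 and 1350 to 744 and 771 in KO saline against WT saline. The cause was not tested. Without read depth, the precision of low values such as Fosb, Fosl1 and Egr2 is not known, and 3 or 4 mice a group limit every comparison.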
